A study of Mus musculus with 146 samples.

Results

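The genes for the classical major histocompatibility complex (MHC) class II chains H2-Aa, H2-Ab1 and H2-Eb1, for the invariant chain Cd74 and for the class II transactivator Ciita were followed in the brain through relapsing-remitting EAE (experimental autoimmune encephalomyelitis), which models multiple sclerosis in mice, and in mice with a conditional interferon gamma receptor deletion. The 5 genes were chosen by name, and all 5 were among the 716 genes of the table of disease stages and among the 204 genes of the table of Ifngr genotypes. All mice were F1 animals of a C57BL/6 by SJL cross that carried Cx3cr1-CreER, a tamoxifen-dependent Cre recombinase driven from the Cx3cr1 locus, and RPL22-HA, an HA-tagged ribosomal protein. Every mouse received 4 gavages of 5 mg tamoxifen at an age of 4 to 6 weeks; the age at sampling is not given in the sources used here. Cx3cr1 is active in microglia but also in other myeloid cells, so the tag marks a Cre-defined lineage. Anti-HA libraries hold mRNA bound to tagged ribosomes, IgG libraries hold what an isotype antibody brought down, and input libraries hold RNA of the whole brain homogenate.

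The course had 6 groups by title, Non immunized with 6 replicates, Initiation with 4, Max with 6, Remission with 8, Cure with 5 and Relapse with 4, each replicate with 3 libraries, anti-HA, IgG and input. The treatment label reads relapsing-remitting EAE for all of them, the non-immunized group included, so the stage was taken from the titles. The genotype groups were Ifngr ko/fl, titled INFg KO, and Ifngr ko/wt, titled INFg control, with 4 replicates of each kind of library. Both carry the tag, the Cre and 1 ko allele, so the ko/wt mice are not wild type, and the titles name EAE without a stage. In the ko/fl mice only cells in which Cre acted are expected to lose the second allele.

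MHC class II molecules display peptides from the endosomes to CD4+ T cells. An alpha chain and a beta chain form each molecule, Cd74 binds the pair in the endoplasmic reticulum and leads it to the endosomes, and Ciita is the transactivator without which the genes of these chains are hardly transcribed. Interferon gamma induces Ciita, in part through the transcription factor IRF1, and microglia of a healthy brain are known for low class II levels that increase in neuroinflammation. C57BL/6 and SJL mice both lack a functional E alpha chain, so H2-Eb1, the E beta chain gene, has no partner at the cell surface in these animals.

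On the mm10 assembly the 3 chain genes lie together on chromosome 17. H2-Ab1, the A beta chain gene, runs from 34257689 to 34269419 on the plus strand. H2-Aa, the A alpha chain gene, runs from 34282744 to 34287823 on the minus strand. H2-Eb1 runs from 34305867 to 34316674 on the plus strand. All 5 members are annotated as protein coding in GENCODE.

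Class II promoters are known for an X box and a Y box at a fixed spacing, which RFX and NF-Y factors occupy and on which Ciita assembles. RefSeq promoter sequences on GRCm38.p6 matched 2 of the 5 members, H2-Aa and H2-Eb1, and their 150 bases before the annotated start are shown because the 2 genes share this arrangement. Capitals mark the letters GCAAC, taken as an X box core, and CTGATTGG, taken as a Y box. The H2-Aa window is chr17:34287824-34287973 on the minus strand and the H2-Eb1 window is chr17:34305717-34305866 on the plus strand, both written 5′ to 3′ on the gene's strand.
H2-Aa: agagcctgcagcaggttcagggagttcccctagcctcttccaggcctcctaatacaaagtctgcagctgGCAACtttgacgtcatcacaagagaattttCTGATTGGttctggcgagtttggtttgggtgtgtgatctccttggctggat
H2-Eb1: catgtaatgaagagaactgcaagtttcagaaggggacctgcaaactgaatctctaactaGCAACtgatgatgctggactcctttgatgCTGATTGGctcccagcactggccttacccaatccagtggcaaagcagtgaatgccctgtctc
Counted from the start of the gene, GCAAC began at base -81 and CTGATTGG at base -51 in H2-Aa, 30 bases apart. In H2-Eb1 they began at -91 and -62, 29 bases apart. Of 32851 promoter windows of 300 bases (250 before and 50 after a start), 35.2% held GCAAC on either strand and 4.10% held CTGATTGG. CTGATTGG lay 20 to 40 bases after GCAAC on 1 strand in 30 windows, or 0.0913%. A match is a description of letters and not a measured binding site.

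Each value is a normalised count, the reads of a gene divided by the authors' size factor of that library, and levels are not corrected for gene length. Over the genes of each table, anti-HA libraries of the course held 152704 to 880410 reads, inputs 49902 to 159540 and IgG libraries 6775 to 162205; for the genotypes the ranges were 136064 to 589041, 46467 to 202176 and 4360 to 17987. Initiation 2 stood apart from the other 3 initiation replicates in all 3 kinds of library, with members several times higher. The inputs were also put on 2 sides by title, called the split among inputs below. Remission 7 and 8 with all Cure and Relapse libraries (11 libraries) stood against the other 22. Principal component 3 of the inputs, over 474 genes that are not members, carried 3.66% of the variance. On it the 11 scored -0.347 to -0.129 and the other 22 scored -0.0645 to 0.314, without overlap but with a narrow gap. Only this component is given, and its sign was set by the sides. It therefore does not show that this split stands out among the inputs. The side and the stage cannot be told apart outside Remission, the only stage with libraries on both sides. The anti-HA libraries carried 7 of 13 microglial marker genes in the table, with summed levels of 12178 to 28278 in Non immunized, 7419 to 13714 in Initiation, 6538 to 11355 in Max, 8337 to 14357 in Remission, 4617 to 12819 in Cure and 7265 to 12361 in Relapse. Against Non immunized all 7 were called lower in Initiation, Max and Remission and 4 of 7 in Cure and in Relapse. From Initiation to Relapse 16.2%, 17.2%, 15.4%, 17% and 14.9% of the table was called lower. None of the marker lists for T cells, for monocytes and neutrophils, for astrocytes, for oligodendrocytes or for neurons had a gene in the table.

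H2-Aa encodes the A alpha chain. In the anti-HA libraries its normalised count was 534, 1272 and 1942 (lowest, median and highest) in Non immunized, and 1966, 22866, 3289 and 5204 in Initiation. It was 12782, 26737 and 33796 in Max and 7524, 22313 and 28407 in Remission, then 11684, 3116, 5117, 9804 and 14165 in Cure and 5396, 15706, 10404 and 15587 in Relapse. Every library of the 5 immunized stages lay above all 6 non-immunized ones, and any 2 immunized stages overlapped. How many of the 716 genes were without overlap between stages was not counted, for this or any other member or kind of library.

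H2-Ab1 encodes the beta chain that pairs with it. Its normalised count was 472, 1144 and 1812 (lowest, median and highest) in Non immunized and 2274, 20886, 2320 and 4908 in Initiation. Max held 7527, 22630 and 27515 and Remission 2883, 16775 and 22047; Cure held 4891, 1513, 1613, 4037 and 6195 and Relapse 2234, 7291, 2451 and 6945. The Cure range reached down into the non-immunized one, while the Max libraries lay above every Cure and every Relapse library.

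H2-Eb1 went through the same stages at 313, 714 and 1028 (lowest, median and highest) in Non immunized, 1580, 13655, 1327 and 2715 in Initiation, and 4314, 12780 and 19564 in Max. Remission held 3237, 10217 and 14782, Cure 5063, 1749, 2088, 4430 and 6501, and Relapse 2742, 6603, 5401 and 5804. No immunized library reached down to the non-immunized range, as for H2-Aa.

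Cd74, the invariant chain gene (chromosome 18, 60803848 to 60812652, plus strand), was at 471, 1284 and 3090 (lowest, median and highest) in Non immunized, 4374, 43132, 2537 and 5364 in Initiation, and 9508, 30150 and 52804 in Max. Remission held 8623, 22790 and 44873, Cure 9940, 4023, 4638, 8437 and 11554, and Relapse 7350, 14191, 12222 and 13785. Initiation 3 lay inside the non-immunized range and all other immunized libraries lay above it.

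Ciita (chromosome 16, 10480059 to 10528418, plus strand) gave few reads, with 4 reads over all 6 non-immunized anti-HA libraries, then 55 in Initiation, 190 at Max, 158 in Remission, 103 at Cure and 51 in Relapse. Its normalised count was 0, 0.854 and 2.93 (lowest, median and highest) in Non immunized, 9.74, 68.8, 13.5 and 8.36 in Initiation, 20.9, 40.6 and 64.1 in Max and 5.76, 20.7 and 36.4 in Remission. It was 14.7, 2.39, 4.40, 6.79 and 29.9 in Cure and 5.72, 17.4, 5.59 and 14.6 in Relapse. Only Cure 2 fell inside the non-immunized range.

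**Figure D1:**
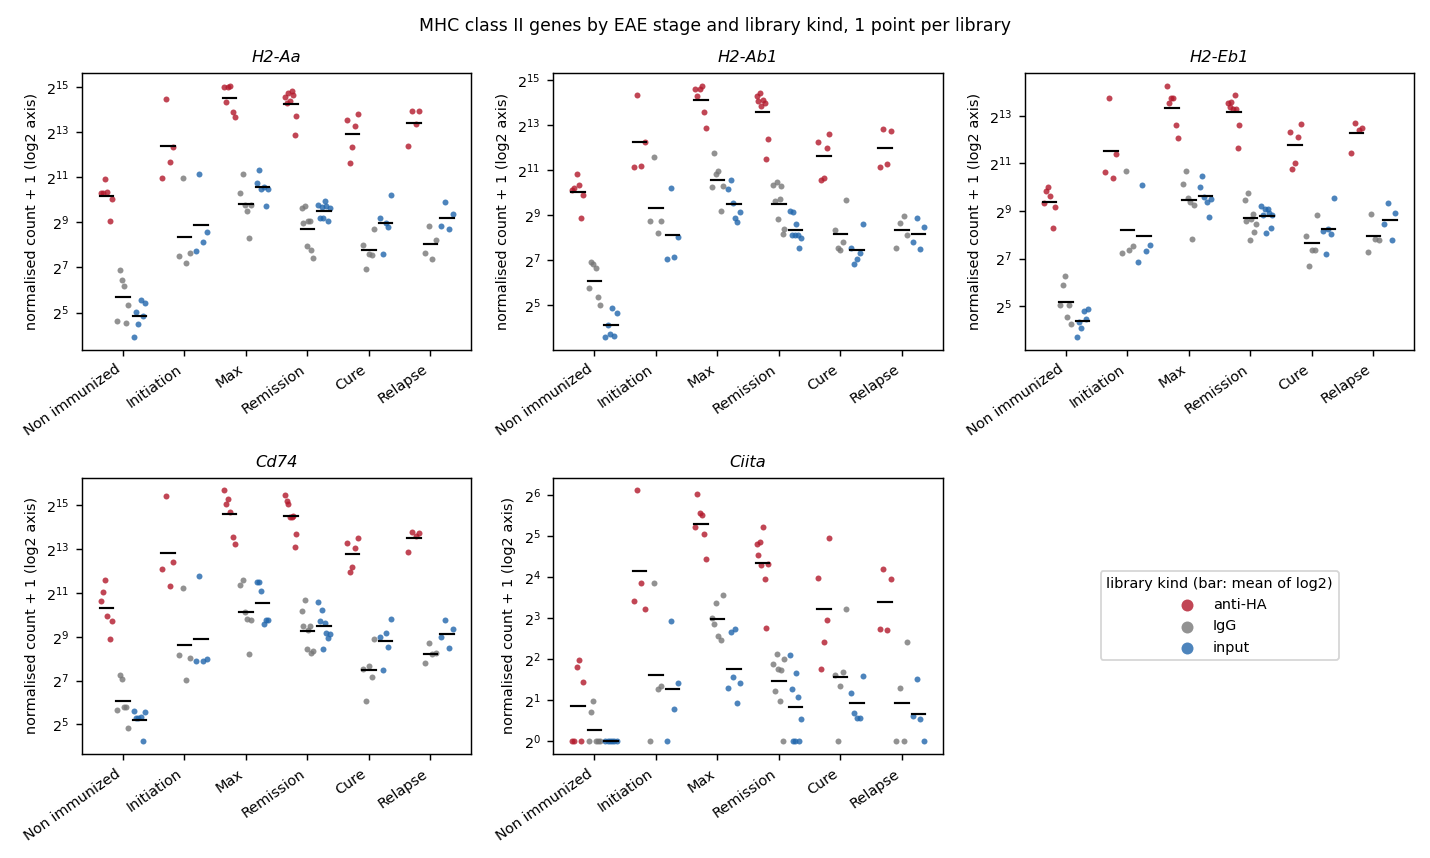
Normalised count plus 1 (log2 axis) of the 5 genes in every library of the 6 stages, with 1 point per library, anti-HA in red, IgG in grey, input in blue, and a bar at the mean of log2 values. The anti-HA bars are highest at Max and next highest in Remission for all 5 genes, the highest single Ciita point is Initiation 2 at 68.8, Initiation 2 is the single high point of its stage in each kind of library, and Ciita is at 0 in all 6 non-immunized inputs.

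Each immunized stage was compared with the non-immunized mice by limma on log2(value + 1) with Benjamini-Hochberg adjustment over the 716 genes, and "called" means an adjusted p under 0.05. The authors chose the 716 genes on these same libraries, so the share of the table called stands beside each count. All 5 members were called higher in Initiation, where 74.4% of the table was. The same held at Max (71.5% of the table), Remission (62.2%), Cure (24.4%) and Relapse (30.7%). In bulk libraries, more tagged cells of a type and more RNA per cell cannot be told apart.

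H2-Aa stood 2.20 ± 0.51 log2 units (SE) above Non immunized in Initiation, 4.33 ± 0.45 at Max, 4.07 ± 0.43 in Remission, 2.74 ± 0.48 at Cure and 3.24 ± 0.51 in Relapse (adjusted p 0.000275, 1.05e-09, 1.93e-09, 3.4e-05 and 6.77e-06 in limma). Max was thus its highest stage, at a back-transformed 20.1-fold. H2-Ab1 stood 2.19 ± 0.59, 4.08 ± 0.53, 3.54 ± 0.49, 1.57 ± 0.55 and 1.95 ± 0.59 higher in the same stages (adjusted p 0.00118, 4.86e-08, 4.11e-07, 0.0222 and 0.00761). Its Cure call was lost when Non immunized 5, Cure 1, Cure 4 or Cure 5 was left out, with an adjusted p of at most 0.0827. H2-Eb1 stood 2.17 ± 0.52, 3.95 ± 0.46, 3.77 ± 0.43, 2.41 ± 0.49 and 2.88 ± 0.52 higher, close to H2-Aa in each stage. Cd74 stood 2.50 ± 0.60, 4.28 ± 0.53, 4.18 ± 0.50, 2.49 ± 0.56 and 3.19 ± 0.60 higher. Ciita, on a scale where the added 1 compresses its low counts, stood 3.29 ± 0.57, 4.44 ± 0.51, 3.48 ± 0.48, 2.35 ± 0.53 and 2.54 ± 0.57 higher. The authors' deposited values were higher than these for all 5 members in Cure (3.20 to 4.83) and in Relapse (3.57 to 4.74). H2-Ab1 was the lowest and Ciita the highest of the 5 there. In Cure the deposited H2-Ab1 value of 3.20 (authors' adjusted p 0.000106) lay close to that of H2-Eb1, 3.23.

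The median log2 fold change of the 5 members was 2.20 in Initiation, 4.28 at Max, 3.77 in Remission, 2.41 at Cure and 2.88 in Relapse, beside medians of 1.24, 1.19, 0.80, 0.19 and 0.44 over all 716 genes. Quantile normalization, which gives all libraries the same distribution, moved those table medians to 0.11, 0.06, 0.00, -0.02 and -0.04. In Max the table then split into 29.1% called higher and 26.3% lower, against 71.5% and 17.2% without it; in Initiation into 27.8% and 24.2%, against 74.4% and 16.2%; and in Remission into 24.3% and 27.1%, against 62.2% and 15.4%. In Cure the split was 21.1% and 22.6%, against 24.4% and 17%, and in Relapse 20.4% and 22.5%, against 30.7% and 14.9%. Under it H2-Aa stood 1.12 higher in Initiation and 2.97 higher in Max, and Cd74 1.80 and 2.97 higher; Ciita, at 0.96 in Initiation and 1.12 in Relapse, was no longer called there (adjusted p 0.0874 and 0.0532). Without Initiation 2 all 5 members remained called in Initiation, at 1.50 for H2-Aa, 1.49 for H2-Ab1, 1.43 for H2-Eb1, 1.63 for Cd74 and 2.63 for Ciita. All 5 values were lower without that replicate.

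**Figure D2:**
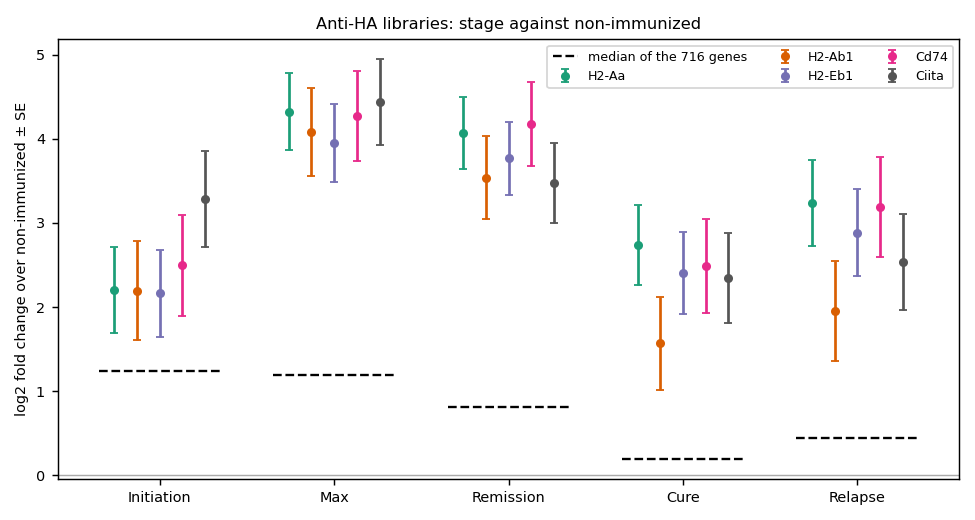
Log2 fold change over non-immunized anti-HA libraries (points, ± SE) of the 5 genes in each immunized stage, with a dashed line at the median of the 716 genes. All points lie above the dashed line of their stage, and H2-Ab1 is the lowest of the 5 in Cure (1.57) and in Relapse (1.95).

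The only measured gene of a B cell marker list of 8, Cd22, also rose in the anti-HA libraries. Its means were 28.9 in Non immunized, 62.1 in Initiation, 223 at Max, 182 in Remission, 84.7 at Cure and 113 in Relapse. It was called higher in all 5 immunized stages, where 74.4%, 71.5%, 62.2%, 24.4% and 30.7% of the table was. In Non immunized, Cd22 averaged 0.302 in input and 1.08 in IgG libraries, and which cells carried it was not tested. Of 10 dendritic cell markers 2 were measured: Cd209a averaged 1.84 in Max and 41.4 in Non immunized, and Siglech, which is in the microglial list too, 75.8 in Max and 267 in Non immunized. Of the 5 endothelial markers, Ly6a, which interferon also induces, averaged 781 in Max and 28.0 in Non immunized, and Pecam1 129 in Max and 220 in Non immunized. The 8 measured genes of 10 markers of border macrophages summed to 1036 to 2018 in Max and 1200 to 3584 in Non immunized, and to 411 to 1238 in Cure. No measured marker of these lists was at 0 in every library, and their part in the member values was not tested.

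The immunized stages were then compared with each other. In Max relative to Initiation, H2-Aa rose by 2.13 ± 0.51 (adjusted p 0.00717), H2-Ab1 by 1.89 ± 0.59 (0.0392) and H2-Eb1 by 1.79 ± 0.52 (0.0305) in limma, 3 of the 5 members where 7.26% of the table was called higher. Cd74 missed the threshold at 1.78 ± 0.60 (0.0518), as did Ciita at 1.15 ± 0.57 (0.17). Without Initiation 2 all 5 were called (2.83, 2.59, 2.52, 2.65 and 1.80, in the order H2-Aa, H2-Ab1, H2-Eb1, Cd74, Ciita), and without Initiation 1 none of the members was; without Initiation 3, Initiation 4, Max 1 or Max 4 a single member was. In the authors' deposited table none of the 5 passed 0.05 for this comparison, with H2-Aa at 1.57 (adjusted p 0.13).

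Remission and Max were not separated for any of the 5, with 20.9% of the table called. H2-Aa stood at -0.25 ± 0.43 (Remission over Max, 95% interval -1.12 to 0.61), H2-Ab1 at -0.54 ± 0.49, H2-Eb1 at -0.19 ± 0.43 and Cd74 at -0.09 ± 0.50. Ciita stood at -0.96 ± 0.48, the lowest of the 5, with an adjusted p of 0.132. Without Remission 7 and 8 the values of H2-Aa (0.064), H2-Ab1 (0.0035), H2-Eb1 (0.15) and Cd74 (0.27) turned positive.

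Cure was set against Remission, the stage before it in the series' order. H2-Aa fell by 1.34 ± 0.45 on the log2 scale (adjusted p 0.0249), H2-Ab1 by 1.97 ± 0.52 (0.0107), H2-Eb1 by 1.36 ± 0.46 (0.0249) and Cd74 by 1.69 ± 0.53 (0.0189) in limma, 4 of the 5 members where 33.7% of the table was called lower. Ciita stood at -1.13 ± 0.50 (0.075). H2-Ab1 ranked 715 of 716 by fold change. After quantile normalization 0.419% of the table and none of the members was called lower. A term for the side of the split among inputs, which rests on Remission 7 and 8 against Remission 1 to 6, ended all 4 calls: H2-Aa was then at -0.38, H2-Ab1 at -0.33, H2-Eb1 at -0.35, Cd74 at -0.59 and Ciita at -0.33. Without Remission 7 and 8 all 5 members were called lower in Cure (-1.65, -2.52, -1.70, -2.06 and -1.40), while without Cure 3 none was and without Cure 2 only 1. In the authors' deposited table H2-Aa stood at -0.46 (adjusted p 0.804) and H2-Ab1 at -0.66 (0.674).

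Relapse was lower than Max for 2 of the 5 members, where 49.2% of the table was called lower: H2-Ab1 by 2.13 ± 0.59 (adjusted p 0.00414 in limma) and Ciita by 1.90 ± 0.57 (0.00731). H2-Aa (-1.09 ± 0.51), H2-Eb1 (-1.07 ± 0.52) and Cd74 (-1.09 ± 0.60) were not called, with adjusted p-values of 0.0694, 0.0784 and 0.12. With the term for the side, no member was called and H2-Ab1 stood at 0.06 and Ciita at -0.83. Without Max 6, 4 members were called. In the authors' deposited table none of the 5 passed 0.05, and H2-Ab1 stood at -0.54.

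Ordered from low to high mean log2 value, H2-Aa and H2-Eb1 ran Non immunized, Initiation, Cure, Relapse, Remission, Max. H2-Ab1 and Ciita ran Non immunized, Cure, Relapse, Initiation, Remission, Max, and Cd74 ran Non immunized, Cure, Initiation, Relapse, Remission, Max. All 5 shared their lowest stage and their 2 highest. Neighbouring stages above Non immunized overlapped in their libraries for every member.

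The A beta chain gene parted from the A alpha chain gene late in the course, a pattern picked out after its values were seen and given without a test. The ratio of H2-Ab1 to H2-Aa normalised counts in the anti-HA libraries was 0.877 to 1.00 in Non immunized (median 0.916), 0.705 to 1.16 in Initiation (0.928) and 0.589 to 0.966 in Max (0.788). It was 0.628 to 0.864 in Remission 1 to 6, and 0.383 and 0.407 in Remission 7 and 8. Cure ranged from 0.315 to 0.486 (0.419) and Relapse from 0.236 to 0.464 (0.430). The 11 libraries on the late side of the input split thus held 0.236 to 0.486 and the other 22 held 0.589 to 1.16, without overlap, and within Remission the ratio followed the side. In the inputs the sides overlapped, at 0.265 to 0.591 on the late side and 0.307 to 0.786 on the other.

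The ratio of H2-Eb1 to H2-Aa did not part in this way, at 0.372 to 0.561 on the late side and 0.337 to 0.803 in the other anti-HA libraries. The ratio of Cd74 to H2-Aa also overlapped, at 0.816 to 1.36 and 0.744 to 2.22. Whether a batch, the stage or mapping of reads from the SJL allele plays a part in the H2-Ab1 ratio was not tested.

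**Figure D3:**
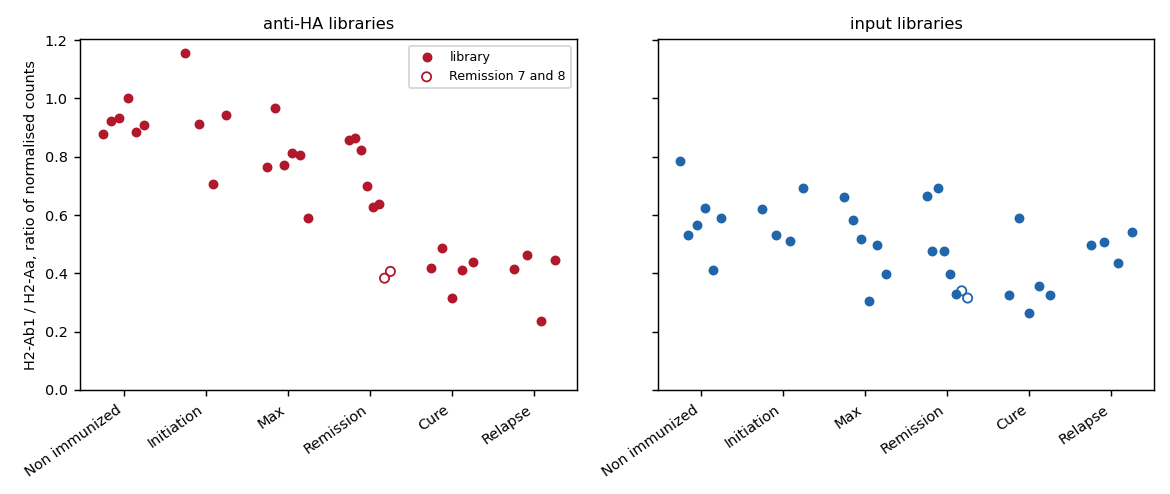
Ratio of H2-Ab1 to H2-Aa normalised counts in each anti-HA library (left) and each input library (right) by stage, with 1 point per library and open circles for Remission 7 and 8. In the anti-HA panel Cure, Relapse and the open circles lie at 0.236 to 0.486, below the other 22 libraries; in the input panel the points overlap.

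The stage profiles of the members were close to each other. As the root mean square difference between centred stage means of log2(value + 1) over the 6 stages, H2-Eb1 and Cd74 were the closest pair (0.148) and H2-Aa and Ciita the widest (0.600). Measured against the mean profile of all 5, H2-Eb1 was at 0.164, Cd74 at 0.168, H2-Aa at 0.256, H2-Ab1 at 0.300 and Ciita at 0.374. Of the other genes of the table, the 5 nearest to that mean profile were H2-K1 (0.323) and H2-D1 (0.350), which encode MHC class I heavy chains, Ly9 (0.357), a SLAM family receptor gene, Cybb (0.384), which encodes the NADPH oxidase subunit gp91phox, and C4b (0.392), a complement component gene. The median over all genes that are not members was 1.13 log2 units. All stage means share the same 33 anti-HA libraries and their size factors, so these values are a description.

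Other genes of class II loading and of interferon gamma signalling were counted from lists of 24 and 12 genes. Of the loading list 9 genes were in the table, and against Non immunized 7 rose and 1 fell in Initiation, 8 rose and 1 fell in Max, 8 rose in Remission, 4 rose in Cure, and 6 rose and 1 fell in Relapse. In these stages 74.4%, 71.5%, 62.2%, 24.4% and 30.7% of the whole table was called higher, so 7 of 9 in Initiation is near the share of the table. The gene that fell was H2-Ob, the beta chain of the H2-O inhibitor of peptide exchange, at -1.14 ± 0.34 in Initiation; it is named after its values were seen. In Max, H2-DMa, a chain of the H2-M editor that removes the Cd74 fragment, rose by 2.27 ± 0.29 (adjusted p 4.94e-08), H2-Oa, the alpha chain of H2-O, by 2.58 ± 0.41 (1.32e-06), Ifi30, a lysosomal thiol reductase gene, by 2.40 ± 0.29 (1.54e-08) and Ctsl, a lysosomal protease gene, by 1.33 ± 0.24 (9.23e-06) in limma. The loading list had medians of 1.06, 1.33, 1.34, 0.84 and 0.99 from Initiation to Relapse, near the table's medians in Initiation and Max.

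Of the signalling list 4 genes were in the table, Irf1, Irf9, Socs1 and Socs3, and all 4 rose in Initiation, Max and Remission. In Cure and in Relapse 2 of the 4 rose, beside the same table shares. Irf1, a transcription factor that acts on the Ciita promoter, rose by 3.40 ± 0.42 in Initiation, 3.69 ± 0.37 at Max, 2.34 ± 0.35 in Remission, 1.11 ± 0.39 at Cure and 1.64 ± 0.42 in Relapse (adjusted p 3.71e-08, 4.26e-10, 1.09e-06, 0.021 and 0.00179 in limma). Socs1 and Socs3, feedback inhibitors of cytokine signalling, rose by 3.54 ± 0.48 and 2.87 ± 0.35 in Max. In Cure relative to Remission, 3 of the 9 loading genes fell (H2-DMa, H2-DMb1 and H2-Oa) and 2 of the 4 signalling genes did (Irf1 and Irf9). The table had 33.7% called lower, so the loading count is at its share, and after quantile normalization only 0.419% of the table was called lower.

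In the whole homogenate the abundant members rose as well. Input H2-Aa held 14.1, 29.3 and 45.8 normalised counts (lowest, median and highest) in Non immunized, 211, 2259, 279 and 376 in Initiation, 838, 1476 and 2580 in Max and 539, 801 and 973 in Remission. It held 575, 190, 505, 442 and 1196 in Cure and 449, 938, 418 and 659 in Relapse, so every immunized input lay above every non-immunized one. H2-Aa stood 4.02 ± 0.47, 5.69 ± 0.42, 4.65 ± 0.39, 4.08 ± 0.44 and 4.33 ± 0.47 log2 units above Non immunized from Initiation to Relapse. It had the highest fold change of the table in Cure and in Relapse. The Initiation value leans on Initiation 2, the highest of its 4 inputs, without which H2-Aa stood 3.27 above Non immunized.

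Input H2-Ab1 stood 4.01 ± 0.48, 5.39 ± 0.43, 4.24 ± 0.40, 3.37 ± 0.45 and 4.07 ± 0.48 higher, and H2-Eb1 3.59 ± 0.45, 5.24 ± 0.40, 4.41 ± 0.38, 3.86 ± 0.42 and 4.24 ± 0.45 higher. Cd74 stood 3.66 ± 0.57, 5.31 ± 0.51, 4.25 ± 0.48, 3.58 ± 0.54 and 3.92 ± 0.57 higher. All adjusted p-values of these 4 genes were at most 1.8e-05 in limma, and 39.2%, 53.4%, 33.9%, 24.4% and 26.8% of the table was called higher in Initiation, Max, Remission, Cure and Relapse. Without Initiation 2 the Initiation values were 3.31 for H2-Ab1, 2.88 for H2-Eb1 and 2.71 for Cd74, and all remained called. Under quantile normalization the inputs split into 18.3%, 23%, 16.8%, 10.6% and 11.3% of the table called higher and 28.9%, 44%, 22.8%, 9.36% and 10.8% lower from Initiation to Relapse; without it 0.279%, 1.82%, 0%, 0.838% and 1.12% was called lower. The 4 genes remained called higher under it in each stage, H2-Aa at 3.47 in Initiation and 4.70 in Max. Cd22 averaged 13.6 in Max inputs and 0.302 in Non immunized inputs, beside 223 and 28.9 in the anti-HA libraries. Its part was not tested.

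Input Ciita was at or near the floor, with no read in any of the 6 non-immunized inputs and 11, 21, 12, 8 and 5 reads over the groups from Initiation to Relapse. Against a floor of 3 reads over the non-immunized group, pooled Ciita was at least 4.68-fold higher in Initiation, 5.70-fold in Max, 2.17-fold in Remission, 1.97-fold in Cure and 1.43-fold in Relapse. It was called in Initiation (adjusted p 0.0212) and in Max (0.000357) and not in the other stages. Of the 11 Initiation reads 8 came from Initiation 2; without it 3 reads remained, which is the floor itself, so no fold holds there, and the call was lost (adjusted p 0.225). After quantile normalization Ciita was called in neither stage. Such floors cover counting error only.

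Input levels were lower in Remission than in Max for H2-Aa, at -1.04 ± 0.39 (adjusted p 0.0483), and for H2-Ab1, at -1.15 ± 0.40 (0.0334), in limma, where 24.9% of the table was called lower. H2-Eb1, Cd74 and Ciita were not called. The calls were lost without Remission 7 and 8, when no member was called, and without many of the single libraries, H2-Aa without 12 of 14 and H2-Ab1 without 6.

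Anti-HA libraries held more of the 4 abundant members than the other libraries of the same stage. Among non-immunized mice H2-Aa stood 5.30 ± 0.49 log2 units above input, H2-Ab1 5.94 ± 0.51, H2-Eb1 4.99 ± 0.47 and Cd74 5.08 ± 0.57, where 82.1% of the table was called higher. Ciita was called in every stage except Non immunized, where it stood at 0.87 ± 0.49 (adjusted p 0.0926 in limma). In Max the 5 members stood 3.93 ± 0.49, 4.63 ± 0.51, 3.71 ± 0.47, 4.05 ± 0.57 and 3.54 ± 0.49 above input, and 93.4% of the table was called. The shares called in Initiation, Remission, Cure and Relapse were 94.1%, 95.7%, 83.4% and 85.6%. These distances depend on the scaling between kinds of library: after quantile normalization 27.8% of the table was called higher and 29.7% lower in Max, H2-Aa stood 3.03 above input in Non immunized and 0.82 in Max, and Ciita stood at -0.57 in Non immunized.

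Against IgG, H2-Aa stood 4.49 ± 0.49 higher in Non immunized and 4.69 ± 0.49 higher in Max, and H2-Ab1 3.95 ± 0.51 and 3.57 ± 0.51 higher. In these comparisons 83% and 95.3% of the table was called higher, and 95.4%, 96.2%, 87.4% and 88.1% in Initiation, Remission, Cure and Relapse. All 5 members were called in each immunized stage, while after quantile normalization H2-Ab1 and Ciita turned below IgG in Initiation (-0.55 for both) and in Max (-0.17 for both). The IgG mean was 2.30% to 7.61% of the anti-HA mean for H2-Aa over the 6 stages and 5.75% to 14.01% for H2-Ab1, 4.69% to 11.2% for H2-Eb1 and 2.59% to 5.49% for Cd74. For Ciita it was 9.38% to 24.3%. Isotype libraries carried a different mixture, the median H2-Ab1 to H2-Aa ratio in Non immunized being 0.916 in anti-HA and 1.38 in IgG libraries.

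Whether the increase differed between anti-HA and input libraries was tested as an interaction. H2-Aa increased less in anti-HA than in input libraries in Initiation, by -1.82 ± 0.78 (adjusted p 0.0447 in limma), and Ciita increased more, by 2.00 ± 0.77 (0.0279), 2 of the 5 members where 48.6% of the table was called. Without 1 library at a time the H2-Aa call was lost in 11 of 20 fits, Initiation Input 2 among them (adjusted p 0.235). In Max (46.9% called) and Remission (34.9%) only Ciita was called, at 2.67 ± 0.69 and 2.64 ± 0.65. The Ciita calls, Initiation included, rest on a non-immunized input group with no Ciita read. With an added 0.1 in place of 1 none of them was called. With edgeR on reads scaled by TMM all of them turned negative, to -1.25 in Max and -0.97 in Remission. In Cure (18.4%) and Relapse (20.4%) no member was called, and H2-Ab1 came nearest in Relapse at -2.12 ± 0.81 (0.0511).

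Same-numbered anti-HA and input libraries deviated together in every pair in Initiation, Max, Remission and Relapse, though not in every pair in Non immunized or Cure, and with the replicate number as a block within stage more members were called. In Initiation all 5 were (57.5% of the table), H2-Aa at -1.82 ± 0.42, H2-Ab1 at -1.82 ± 0.43, H2-Eb1 at -1.42 ± 0.40 and Cd74 at -1.17 ± 0.41 (adjusted p 0.000405, 0.000557, 0.0029 and 0.0131 in limma). Without all 3 libraries of Initiation 2 the blocked fit also called all 5, H2-Aa at -1.78 and Cd74 at -1.08. In Max all 5 were called with the block (56.4%), H2-Aa at -1.36 ± 0.37 and Cd74 at -1.03 ± 0.36 (0.00178 and 0.0138). In Relapse 4 were (29.2%), H2-Ab1 at -2.12 ± 0.43 (0.00017), with Cd74 at -0.73 ± 0.41 (0.179) not called. In Remission (43.7%) Ciita alone was called with the block as without it. In Cure all 5 were called with the block (26.7%), though its same-numbered pairs did not all deviate together. By the fit with the block the 4 abundant members increased less in anti-HA than in input libraries in Initiation and Max. The unpaired fit called 2 members in Initiation and 1 in Max. Ciita, where called with the block, went the other way. The difference also rests on Non immunized, where 4 of 6 pairs deviated together (correlation over 0.1). Libraries of unlike number were not compared, so the pairing has no baseline.

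The genotype comparison asked what deletion of the interferon gamma receptor in Cx3cr1-lineage cells does to these genes in EAE. Ifngr1 itself, the ligand-binding receptor chain (chromosome 10, 19591949 to 19610229, plus strand), checks the labels. It held 81.0, 88.4, 127 and 76.7 normalised counts in ko/fl anti-HA libraries, against 300, 305, 299 and 232 in ko/wt ones, without overlap (-1.62 ± 0.24, adjusted p 0.000358 in limma). Counts that remained in ko/fl may come from outside the deleted part, which the labels do not name. In the inputs Ifngr1 averaged 14.4 ± 4.73 in ko/fl and 18.3 ± 4.99 in ko/wt (SD, n = 4 each).

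All 5 members fell in ko/fl anti-HA libraries, and for each of them the highest ko/fl library lay below the lowest ko/wt library. How many of the 204 genes were likewise without overlap was not counted, and 97.5% of the table was called in either direction in this contrast. H2-Aa held 1460, 1333, 1166 and 1176 in ko/fl, against 8392, 20659, 22530 and 11084 in ko/wt. H2-Ab1 held 1296, 1382, 846 and 1031 in ko/fl, against 7806, 16452, 18872 and 6591 in ko/wt. The ko/fl libraries lay in a narrow band and the ko/wt libraries ranged widely, with ko/wt 2 and 3 the highest. H2-Eb1 held 1087, 1251, 758 and 818 in ko/fl, against 5764, 12890, 14979 and 5662 in ko/wt. Cd74 held 3965, 4086, 3159 and 2096 in ko/fl, against 20344, 46096, 57128 and 17279 in ko/wt. Ciita held 2.96, 3.05, 0 and 2.84 in ko/fl, against 7.75, 23.4, 37.5 and 29.0 in ko/wt, from 6 reads and 142 reads in all.

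H2-Aa fell by 3.50 ± 0.34 on the log2 scale (adjusted p 0.000139), which is 0.0887 of the ko/wt level. H2-Ab1 fell by 3.33 ± 0.37 (0.000139), H2-Eb1 by 3.22 ± 0.37 (0.000142) and Cd74 by 3.27 ± 0.42 (0.000192) in limma, to 0.0995, 0.108 and 0.104 of ko/wt. Ciita fell by 2.99 ± 0.57 (0.0014). The whole table was chosen for this contrast, and 61.3% of it was called lower and 36.3% higher, so the call itself is not particular to the members. Their median was -3.27 and that of all 204 genes -1.05, and their ranks by fold change were 195 to 201 of 204. Quantile normalization moved the table's median to -0.40, its calls to 39.2% lower and 37.3% higher, and left the members called, at -2.46 for H2-Aa, -2.37 for H2-Ab1, -2.32 for H2-Eb1, -2.92 for Cd74 and -2.17 for Ciita. In the authors' deposited table the values were -3.61, -3.45, -3.33, -3.40 and -3.57 in the same order.

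**Figure D4:**
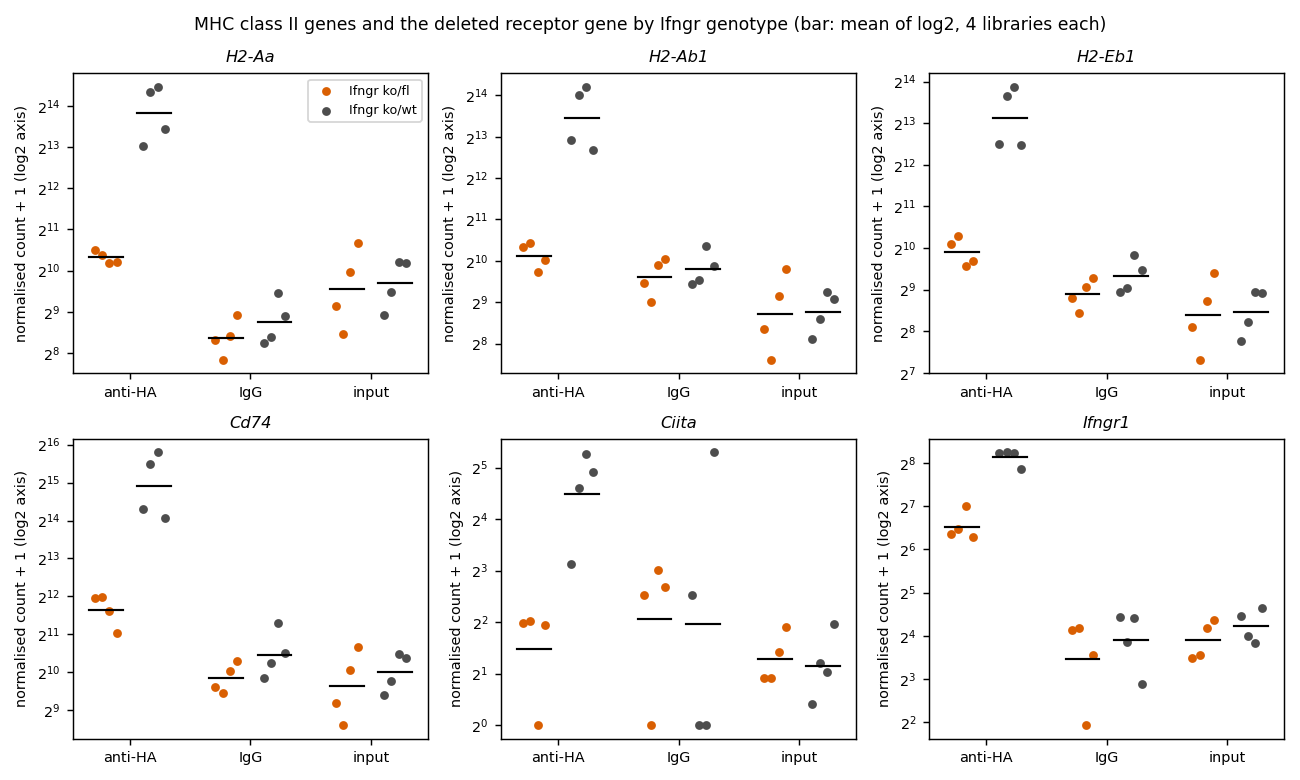
Normalised count plus 1 (log2 axis) of the 5 genes and of Ifngr1 in each library, for anti-HA, IgG and input libraries, with Ifngr ko/fl in orange, Ifngr ko/wt in grey, 4 libraries each, and a bar at the mean of log2 values. In the anti-HA libraries all ko/fl points lie below all ko/wt points for each gene, and in the IgG and input libraries the genotypes overlap.

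In the whole homogenate no such difference was measured. Input H2-Aa held 561, 353, 994 and 1621 in ko/fl, against 486, 717, 1191 and 1154 in ko/wt, and the genotypes overlapped. Input Cd74 held 582, 389, 1069 and 1622 in ko/fl, against 675, 878, 1416 and 1331 in ko/wt. The log2 fold changes were -0.15 ± 0.48 for H2-Aa (95% interval -1.23 to 0.93), -0.03 ± 0.46 for H2-Ab1, -0.08 ± 0.45 for H2-Eb1, -0.38 ± 0.44 for Cd74 and 0.13 ± 0.35 for Ciita, all with an adjusted p of 0.995 in limma. Only 0.98% of the table was called in the inputs.

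IgG libraries, where 0% was called, gave -0.37 ± 0.34 for H2-Aa, -0.20 ± 0.30 for H2-Ab1, -0.44 ± 0.27 for H2-Eb1 and -0.61 ± 0.35 for Cd74. The difference between the anti-HA and the input effect was called for all 5 members, where 36.3% of the table was called lower: -3.35 ± 0.60 for H2-Aa, -3.30 ± 0.59 for H2-Ab1, -3.13 ± 0.57 for H2-Eb1 and -2.89 ± 0.63 for Cd74 (adjusted p 0.000426, 0.000426, 0.00048 and 0.00289 in limma). For Ciita it was -3.12 ± 1.24 (0.0441), a call that was lost in 11 of the 16 fits without 1 library.

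**Figure D5:**
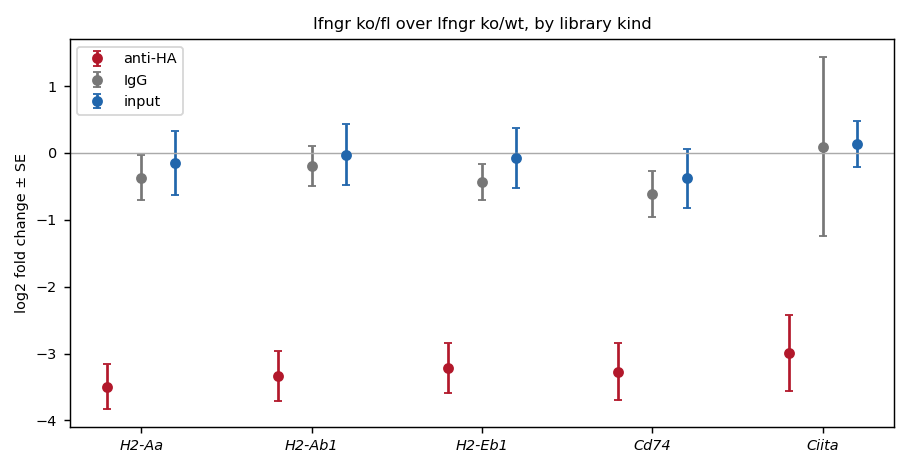
Log2 fold change of Ifngr ko/fl over Ifngr ko/wt (points, ± SE) for each of the 5 genes in anti-HA (red), IgG (grey) and input (blue) libraries, with a line at 0. Anti-HA values lie between -3.50 and -2.99 and input values between -0.38 and 0.13.

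In the ko/fl mice the anti-HA levels lay closer to those of the other libraries than in the ko/wt mice. H2-Aa averaged 1284 ± 140 in ko/fl anti-HA libraries and 882 ± 560 in ko/fl inputs (SD, n = 4 each), 0.76 ± 0.42 log2 units apart (adjusted p 0.113 in limma), while in ko/wt mice the distance was 4.11 ± 0.42. H2-Ab1 stood 1.40 ± 0.42 above input in ko/fl and 4.70 ± 0.42 in ko/wt, H2-Eb1 1.52 ± 0.41 and 4.66 ± 0.41, and Cd74 2.02 ± 0.44 and 4.91 ± 0.44. Ciita stood 0.20 ± 0.88 above input in ko/fl (0.844) and 3.32 ± 0.88 in ko/wt. In ko/fl 3 of the 5 members were called above input, where 62.3% of the table was, and in ko/wt all 5 were, where 75.5% was. The direction in ko/fl depends on the scaling: after quantile normalization (24% of the table called higher and 26% lower) H2-Aa stood at -1.50, H2-Ab1 at -0.82, H2-Eb1 at -0.72, Cd74 at -0.69 and Ciita at -0.32.

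Against IgG, H2-Aa stood 1.95 ± 0.42 higher in ko/fl and 5.07 ± 0.42 in ko/wt, and H2-Ab1 0.52 ± 0.42 (adjusted p 0.258 in limma) and 3.66 ± 0.42. In ko/fl 3 of the 5 members were called above IgG (63.7% of the table) and in ko/wt all 5 (76.5%), while after quantile normalization H2-Aa stood at -0.14 and H2-Ab1 at -1.91 in ko/fl. The IgG mean was 26.7% of the anti-HA mean in ko/fl and 2.89% in ko/wt for H2-Aa, 70.9% and 7.40% for H2-Ab1, 49.5% and 6.72% for H2-Eb1 and 28.5% and 4.31% for Cd74. Ciita had an IgG mean of 194% of the anti-HA mean in ko/fl, where anti-HA was higher in 1 of 4 pairs. In ko/wt it was 44.1%, and anti-HA was higher in 3 of 4. That ko/wt IgG mean, 10.8, rests on 1 library, ko/wt 4, at 38.4 from 6 of the group's 9 reads. The group's median was 2.37. The ko/fl anti-HA level of Ciita (6 reads) lay within the isotype background (8 reads), and its fold change between genotypes is set against that level. Anti-HA H2-Ab1 was above IgG in 2 of 4 ko/fl pairs, so its fold change between genotypes is also set against a level near that background. No background was subtracted from the fold changes. The H2-Ab1 to H2-Aa ratio was 0.725 to 1.04 in ko/fl and 0.595 to 0.930 in ko/wt anti-HA libraries, which overlap.

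Of the loading list 4 genes were in the genotype table, and in the anti-HA libraries 3 fell and 1 rose in ko/fl, where 61.3% of the table fell and 36.3% rose. H2-DMa fell by 1.77 ± 0.23 (adjusted p 0.000192), H2-DMb1, its beta chain, by 1.57 ± 0.22 (0.000272) and H2-Oa by 2.16 ± 0.33 (0.000497) in limma; Ctsd, a lysosomal aspartic protease gene, rose by 0.92 ± 0.27 (0.00959). Of the signalling list 3 genes were measured and all 3 fell, Ifngr1, Irf1 by 2.16 ± 0.30 and Socs1 by 2.51 ± 0.28. Ifngr1 is the check of the labels given above, so its fall is no separate finding on signalling. The loading list had a median of -1.67 and the signalling list, Ifngr1 included, of -2.16. In the inputs none of these 7 genes was called.

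Markers of cell types also differed between the genotypes. Fcrls, the only measured gene of the microglial list, held 1014 to 1793 in ko/fl and 119 to 494 in ko/wt anti-HA libraries. In the inputs it held 23.8 to 33.9 in ko/fl and 4.32 to 11.4 in ko/wt. It was called higher in both kinds of library, where 36.3% and 0.49% of the table was. Clec10a, the only measured gene of the dendritic cell list, held 101 to 141 in ko/fl and 132 to 264 in ko/wt anti-HA libraries. Ly6a, listed as an endothelial gene, held 36.9 to 58.3 in ko/fl and 180 to 401 in ko/wt. The part of cell composition in the member values was not tested.

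T cells sorted from brains of both genotypes were covered by the authors' deposited table of CD25-positive cells, 8627 genes of which 18 have an adjusted p below 0.05. There H2-Ab1 stood at -0.50 (ko/fl over ko/wt, adjusted p 0.256), Cd74 at -0.27 (0.5), H2-Aa at -0.23 (0.61), H2-Eb1 at -0.19 (0.72) and Ciita at 0.39 (0.937). None of the 5 passed the threshold.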

How the data were processed

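Ribosome-bound mRNA was sequenced after anti-HA or IgG1 immunoprecipitation of brain homogenate, beside input RNA. Library values are signal as deposited, that is, counts of a gene over a size factor set by the authors. The unit was read from the values, of which 100% were whole multiples of 1 step, taken as 1 read, with a tolerance of 0.01 steps and a relative 1e-07. The build is mm10, per the submitters' processing notes; for aligner, counter and strand the sources used here state nothing. The reference is of C57BL/6 origin, so reads of SJL alleles may map less well, and reads of similar class II genes may be split in a way not stated. The log2 fold changes and adjusted p-values called the authors' were deposited by the authors, per the file headers.

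The tables hold only genes the authors chose on the same libraries. The 5 members, the gene lists and the comparisons were chosen with earlier results of these data known. Each comparison was fitted over the whole table with limma 3.58.1 (R 4.3.3) on log2(value + 1), with all groups of the kind or kinds of library in 1 fit; tests are two-sided, with Benjamini-Hochberg adjustment across each table's genes, called below 0.05, and 95% intervals use the moderated t distribution of limma. The named genes are the 5 members, Ifngr1, up to 4 of each pathway list per comparison by smallest p, and the 5 nearest profiles; marker genes are given beside them. For the signalling list, 1 gene is not reported here and was left out of its counts and medians. Alternatives were another added value, a filter on low means, quantile normalization, edgeR 4.0.16 and DESeq2 1.42.0 on recovered reads, library weights, a replicate block, the input split and leaving out each library. The fits were tested on simulated data.

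Labels do not say whether replicates are separate animals, so p-values measure only the spread between these libraries. Same-numbered libraries deviated together (every correlation over 0.1) for anti-HA with input and with IgG in Initiation, Max, Remission and Relapse. There the block changed no member's call of anti-HA over input or over IgG within a stage; for the difference between the anti-HA and input changes it did, and those values stand beside the result. It was not so in the other groups, between stages or between genotypes.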

Additional observations from a re-analysis of the deposited data

Results flagged for a closer look

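Among 119 sets, each 1 member in 1 group of 4 to 8 libraries, 21 had a single library far from the rest. The rule's nominal rate of about 1 in 20 assumes independent sets, while the members share the same libraries. Initiation 2 accounts for 14 of the 21. Its anti-HA library held 22866 for H2-Aa, 20886 for H2-Ab1, 13655 for H2-Eb1, 43132 for Cd74 and 68.8 for Ciita. Its input held 2259 for H2-Aa, 1199 for H2-Ab1, 1098 for H2-Eb1 and 3449 for Cd74, and its IgG library 2006 for H2-Aa, 3111 for H2-Ab1, 1658 for H2-Eb1, 2361 for Cd74 and 13.5 for Ciita. Cure 5 stood above the other Cure libraries with 390 for H2-Ab1 and 738 for H2-Eb1 in input, and with 809 for H2-Ab1 and 8.30 for Ciita in IgG. Non immunized 5 stood below its group with 17.8 for Cd74 in input. Ciita was at 38.4, from 6 reads, in the IgG library of Ifngr ko/wt 4, and at 0 in the anti-HA library of Ifngr ko/fl 3.

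The change against Non immunized differed between anti-HA and input libraries for H2-Aa in Initiation (-1.82) and for Ciita in Initiation (2.00), Max (2.67) and Remission (2.64), on the log2 scale. The Ciita values rest on non-immunized inputs with no Ciita read. The effect of Ifngr ko/fl over ko/wt differed between anti-HA and input libraries by -3.35 for H2-Aa, -3.30 for H2-Ab1, -3.13 for H2-Eb1, -2.89 for Cd74 and -3.12 for Ciita.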

How the results depend on the processing

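The 5 members were called lower in Ifngr ko/fl anti-HA libraries under every alternative run, leave-one-out fits included. Other calls depended on the processing, and the cause was not tested. Counts here are members called in either direction, of 5. The share of the table called was counted under quantile normalization and the block, and not under the other alternatives. For Max against Initiation they were 0 with edgeR on the authors' size factors, 1 with DESeq2, 5 with library weights and 0 to 5 in leave-one-out fits. For Cure against Remission they were 0 after quantile normalization, with TMM and with the term for the side of the input split, and 0 to 5 in leave-one-out fits. For Relapse against Max they were 1 with 0.1 added, after quantile normalization and with TMM, 4 with DESeq2, 5 with weights, 0 with the side term and 2 to 4 in leave-one-out fits. For input Remission against Max they were 0 with 0.1 added, after quantile normalization, with TMM, with the side term and without Remission 7 and 8, 4 with weights, and 0 to 3 in leave-one-out fits.

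Anti-HA against input gave, after quantile normalization, 1 in Initiation, 2 in Max, 2 in Relapse and 3 in ko/wt, beside 54.1%, 57.5%, 60.9% and 62.3% of the table. With TMM it gave 1 in Initiation and 1 in ko/fl. Against IgG, quantile normalization gave 0 in Initiation, 1 in Max, 3 in Remission, 3 in Relapse and 1 in ko/wt, beside 57.3%, 59.9%, 73.5%, 62.2% and 65.7% of the table. TMM gave 2 in Initiation. The difference between the anti-HA and input changes was called for 0 members in Initiation, Max and Remission with 0.1 added, and for 1 in Initiation with 10 added. It was called after quantile normalization for 5 at Max, 4 in Remission, 1 at Cure and 3 in Relapse, beside 45.4%, 28.1%, 11.3% and 16.6% of the table. With edgeR on the authors' size factors it was called for 1, 0 and 0 in Initiation, Max and Remission. With TMM it was for 4, 3, 0, 1 and 1 from Initiation to Relapse. DESeq2 called it for 0, 0 and 1 in Max, Remission and Relapse, and weights for 4, 5, 5 and 3 in Initiation, Max, Cure and Relapse. Leave-one-out fits gave 1 to 3 in Initiation, 0 to 1 in Cure and 0 to 1 in Relapse.

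Same-numbered samples were not paired between stages by the check, so for these comparisons the replicate block is given here only: 4 members in Relapse against Max and 0 in input Remission against Max. Anti-HA and input libraries did pair within Initiation, Max, Remission and Relapse. The within-stage block gave 5, 5, 5 and 4 for their difference in Initiation, Max, Cure and Relapse, beside 57.5%, 56.4%, 26.7% and 29.2% of the table. Without the libraries of Initiation 2, a setting chosen after seeing the data, Initiation gave 5 with the block and 3 without it. The block changed no other count by over 1.5 times. With the block, with the side term and without Remission 7 and 8, Remission over Max turned to 0.064 for H2-Aa, 0.0035 for H2-Ab1, 0.15 for H2-Eb1 and 0.27 for Cd74. With the side term Relapse over Max turned to 0.19 for H2-Aa, 0.058 for H2-Ab1, 0.27 for H2-Eb1 and 0.38 for Cd74.

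Other directions that turned were near 0 or rested on scaling. After quantile normalization Remission over Max was 0.0095 for H2-Aa, 0.23 for H2-Eb1 and 0.062 for Cd74, and input Ciita over Non immunized was -0.14 in Remission and -0.23 in Relapse. Anti-HA over input was -0.57 for Ciita in Non immunized and, in ko/fl, -1.50 for H2-Aa, -0.82 for H2-Ab1, -0.72 for H2-Eb1, -0.69 for Cd74 and -0.32 for Ciita. Anti-HA over IgG was, for Ciita, -1.02 in Non immunized, -0.55 in Initiation, -0.17 in Max, -0.89 in Cure and -0.62 in Relapse; for H2-Ab1 -0.55 in Initiation, -0.17 in Max and -0.17 in ko/wt; and in ko/fl -0.14 for H2-Aa, -1.91 for H2-Ab1, -1.27 for H2-Eb1 and -0.89 for Cd74.

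With TMM, Remission over Max was 0.091 for H2-Aa, 0.086 for H2-Eb1 and 0.13 for Cd74 (with weights 0.19 for Cd74). Ciita over IgG was -0.84 in Non immunized, -0.16 in Initiation, -0.26 in Cure and -0.21 in ko/wt, and its difference between anti-HA and input was -1.98, -1.25, -0.97, -1.26 and -0.90 from Initiation to Relapse. In ko/fl, anti-HA over input was -0.80 for H2-Aa, -0.14 for H2-Ab1 and -0.92 for Ciita (-0.20 with 0.1 added), and over IgG -0.93 for H2-Ab1 and -0.41 for H2-Eb1. Input ko/fl over ko/wt was 0.093 for H2-Ab1 and 0.0071 for H2-Eb1 with TMM, 0.14 and 0.033 with edgeR on the authors' size factors, and 0.14 and 0.032 with DESeq2. IgG Ciita ko/fl over ko/wt was -0.40 with TMM, -0.47 with edgeR, -1.02 with DESeq2 and -0.22 with 10 added; with 10 added the Cd74 difference between anti-HA and input in Remission was 0.22.

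Leave-one-out fits ranged from -0.44 to 0.025 for H2-Eb1 and from -0.37 to 0.13 for Cd74 in Remission over Max, and from -0.35 to 0.19 for the Cd74 difference in Remission. For input ko/fl over ko/wt they ranged from -0.52 to 0.22 for H2-Aa, -0.39 to 0.35 for H2-Ab1, -0.42 to 0.28 for H2-Eb1 and -0.12 to 0.40 for Ciita, and for IgG from -0.35 to 0.0039 for H2-Ab1 and -0.56 to 1.21 for Ciita. The filter on a mean of 10 leaves Ciita out of input and IgG fits. Few Ciita reads, the wide spread of Initiation and the authors' choice of genes limit these comparisons.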
